A study of Mus musculus with 12 samples.

Results

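The histone genes are the genes that code for the proteins around which DNA is wound. They were taken here as the probe sets that the array annotation assigns to 1 gene and whose symbol begins with Hist1, Hist2, Hist3 or Hist4, or with the current form of such a name. The brightest probe set was to stand for a gene, but each of them had 1 probe set only. The rule found 31 genes of the 19938 genes that had a probe set of their own: 5 of the linker type H1, 5 of type H2A, 11 of type H2B, 3 of type H3 and 7 of type H4. On chromosome 13 lie 23 of them, on chromosome 3 lie 4, on chromosome 11 lie 3 and on chromosome 6 lies 1. Current symbols are used, and the RefSeq gene table holds 71 such genes in all, many of them too alike to be told apart by a probe. A further 27 probe sets, with 25 distinct sets of values, list several genes with at least 1 histone gene among them and are described separately.

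Histones H2A, H2B, H3 and H4 form the spool of the nucleosome, and H1 binds the DNA where it enters and leaves. Most of the genes lie in clusters, are transcribed mainly while DNA is copied, and give short messages that end in a stem-loop in place of a poly(A) tail. Npat switches the clusters on at the start of S phase, and the stem-loop binding protein Slbp carries the message through cutting, export and translation. Mouse pluripotent cells divide fast and spend much of their cycle in S phase, so they hold much histone mRNA. A smaller number of variant histones, such as H2az1, are made throughout the cycle.

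The arrays came from 4 lines of induced pluripotent stem (iPS) cells, which had been returned to a state like that of embryonic stem cells. All 4 lines share the C57BL/6J strain, an origin in mouse embryonic fibroblasts, reprogramming with 3 factors and culture in embryonic stem cell medium. LiPS-45 and LiPS-57 had competence for tetraploid complementation, in which the fetus forms from the injected cells, while LiPS-47 and LiPS-50 lacked it. Each line is represented by 3 cultures, called biological repeats in the labels, with 1 Affymetrix array each. The study compared lines with and without that competence. Each competence class holds 2 lines, and the labels do not say whether a line is a single clone or whether feeder cells were present. Nothing in the labels says how separate the cultures of a line were, so each p-value rests on how far these cultures vary.

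Values are probe set intensities as log2(value + 1), and a difference is the first line minus the second with its standard error (SE) from limma. Arrays of a line correlated at 0.996 or more, and the array medians lay within 0.0981 of each other. A probe set was called where limma gave an adjusted p under 0.05 over 28939 probe sets. LiPS-50 stood apart from the other lines on the whole array, with 16.5% of probe sets called against LiPS-45, 15.6% against LiPS-57 and 15.8% against LiPS-47. These 3 comparisons use the same LiPS-50 arrays, so their results are given side by side and are not independent of each other.

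The sequences just before the genes show how alike and how different the members' control regions are, and 5 are printed for genes on which the results turn. RefSeq (assembly GRCm38.p6) gave windows from 250 bases before to 50 bases after the start for 26 of the 31 genes. Each is written 5′ to 3′ along the gene, and capitals mark exact matches, on either strand, to the TATA box TATAAA, the CCAAT box, spelled CCAAT, or the octamer, spelled ATTTGCAT. None of these 3 strings contains another. The windows are H1f5 at chr13:21780576-21780875 (minus strand), H2ac4 at chr13:23750838-23751137, H2ac1 at chr13:23934187-23934486, H2bc3 at chr13:23746484-23746783 and H4c4 at chr13:23581318-23581617 (the last 4 on the plus strand).
H1f5: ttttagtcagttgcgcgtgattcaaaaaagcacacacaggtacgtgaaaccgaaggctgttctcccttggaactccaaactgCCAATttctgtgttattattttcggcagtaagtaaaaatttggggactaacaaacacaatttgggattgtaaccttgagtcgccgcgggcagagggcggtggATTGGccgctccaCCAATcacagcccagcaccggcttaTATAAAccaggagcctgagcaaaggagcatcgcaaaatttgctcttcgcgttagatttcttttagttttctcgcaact
H2ac4: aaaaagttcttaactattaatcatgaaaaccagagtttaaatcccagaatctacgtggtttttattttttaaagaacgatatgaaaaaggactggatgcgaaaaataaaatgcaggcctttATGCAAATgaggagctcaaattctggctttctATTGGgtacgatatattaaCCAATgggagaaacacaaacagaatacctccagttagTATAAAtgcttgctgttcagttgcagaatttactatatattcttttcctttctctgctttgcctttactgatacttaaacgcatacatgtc
H2ac1: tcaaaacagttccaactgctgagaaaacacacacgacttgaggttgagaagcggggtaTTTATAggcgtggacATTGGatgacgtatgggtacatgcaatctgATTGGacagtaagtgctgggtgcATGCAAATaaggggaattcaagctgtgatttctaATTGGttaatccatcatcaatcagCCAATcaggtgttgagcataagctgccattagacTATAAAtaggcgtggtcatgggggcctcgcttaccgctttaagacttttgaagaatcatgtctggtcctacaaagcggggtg
H2bc3: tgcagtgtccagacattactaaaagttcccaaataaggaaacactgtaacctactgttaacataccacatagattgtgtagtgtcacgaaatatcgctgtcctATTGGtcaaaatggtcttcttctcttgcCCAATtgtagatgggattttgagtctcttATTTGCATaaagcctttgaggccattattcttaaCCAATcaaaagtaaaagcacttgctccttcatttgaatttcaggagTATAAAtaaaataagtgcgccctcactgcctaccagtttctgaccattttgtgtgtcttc
H4c4: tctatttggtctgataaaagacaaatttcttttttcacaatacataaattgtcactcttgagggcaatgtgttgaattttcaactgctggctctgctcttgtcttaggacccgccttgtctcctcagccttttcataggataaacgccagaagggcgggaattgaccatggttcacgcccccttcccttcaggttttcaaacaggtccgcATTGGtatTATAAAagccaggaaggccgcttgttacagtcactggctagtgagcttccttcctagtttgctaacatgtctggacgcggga

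TATAAA stood in 16 of the 26 windows (61.5%), against 13.6% of the 32851 windows of the whole table. CCAAT stood in 22 (84.6%, against 37.4%), and in each window of the H1, H2A, H2B and H3 genes but in 2 of 6 H4 windows. The octamer, known as a control element of H2B genes, stood in 9 windows (34.6%, against 1.74%). It was found in 4 of 5 H2A windows and 5 of 8 H2B windows, and in 0 of 5 H1, 0 of 2 H3 and 0 of 6 H4 windows. A match is a description of letters and not evidence of a working site. The windows of H2ac1 and H2bc1, which lie head to head on opposite strands with starts 281 bases apart, share 220 bases, so their motif matches are partly the same letters. Those of H2ac8 and H2bc8 share 279 bases.

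Most histone genes were lower in LiPS-50 than in the other lines. Against LiPS-45, 10 of the 31 genes fell and 1 rose (8.3% of all probe sets were called lower and 8.18% higher). Against LiPS-57, 17 fell and 2 rose (7.48% and 8.16% of all probe sets). Against LiPS-47, again 17 fell and 2 rose (7.31% and 8.48% of all probe sets). The median difference over the 31 genes was -0.19, -0.35 and -0.26 in that order, where the median over all tested probe sets was 2.4e-04, -1.9e-04 and -0.014. The falls that passed ranged from 1.18-fold to 1.72-fold.

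Lower in all 3 comparisons were 9 genes, namely H1f5, H2aw, H2ac4, H2bc14, H2bc9, H2bc3, H2bc22, H4c4 and H4c6 (4.57% of all probe sets were called lower in all 3). Higher in all 3 was H2ac1 alone (5.86% of all probe sets). In 15 genes all 3 LiPS-50 arrays lay below all 9 other arrays (9.54% of all probe sets), and in 2 genes, H2ac1 and H2bc4, all lay above them (8.81%). 10 genes were called in no comparison with LiPS-50 (22.7% of all probe sets were called in at least 1). The count against LiPS-45 fell to 7 genes without LiPS-45 culture 1 or without culture 3. The count against LiPS-47 fell to 11 without LiPS-47 culture 3 or LiPS-50 culture 1, and to 12 without LiPS-47 culture 2 or LiPS-50 culture 2. With these lines fitted alone it was 11 as well, 9 lower and 2 higher. The shares of all probe sets called in these runs are not given here, so these drops are not read as particular to histone genes.

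**Figure D1:**
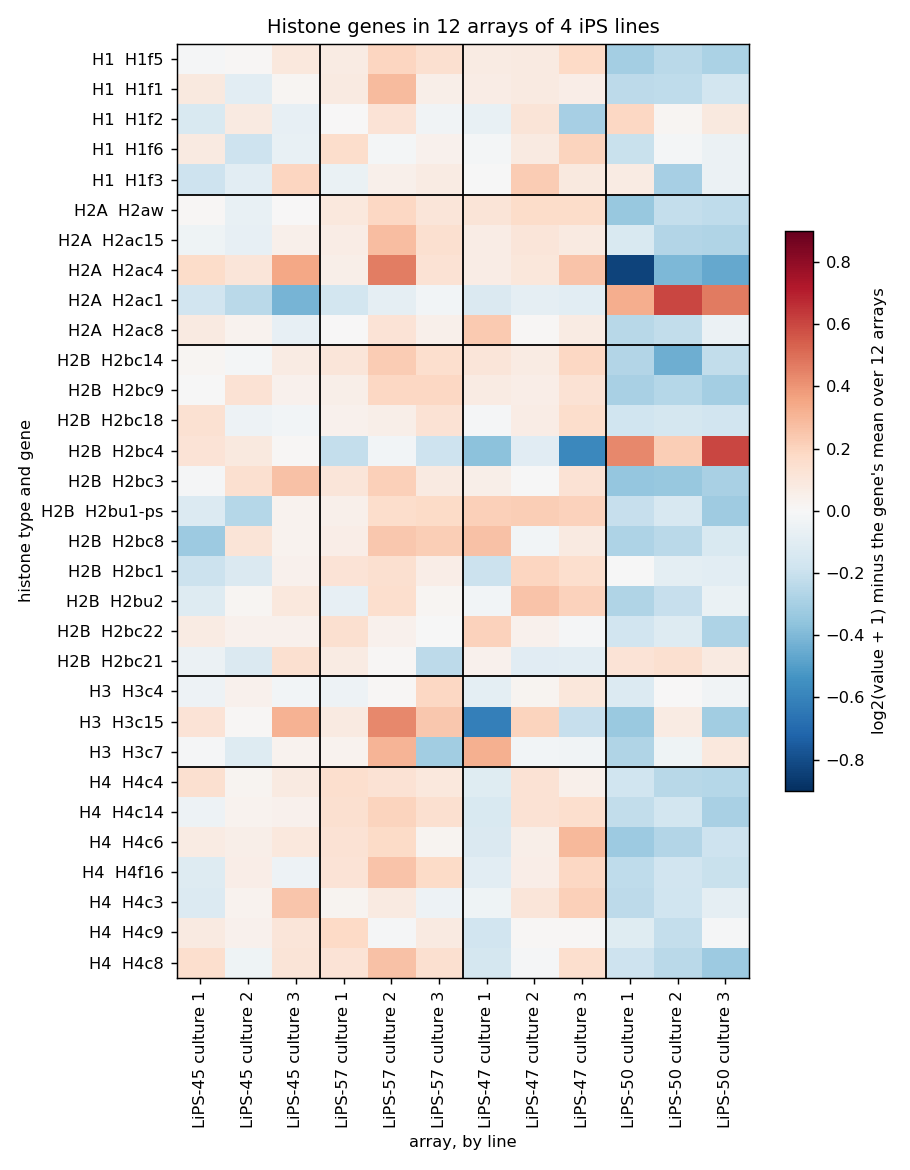
Each row is a histone gene, grouped by histone type, and each column is an array, grouped by line; colour gives log2(value + 1) minus the mean of that gene over the 12 arrays. The 3 LiPS-50 columns are blue in most rows, and H2ac1 and H2bc4 are the rows most strongly red there, with paler red in H1f2 and H2bc21, while dim genes such as H3c15 and H3c7 vary from array to array.

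Markers of fibroblasts and feeder cells were higher in LiPS-50. The sums of the other marker lists overlapped between LiPS-50 and the other arrays, but the medians of the pluripotent and endoderm lists did not. Of 29 fibroblast and feeder cell markers, such as the collagen gene Col1a1 and the receptor gene Pdgfra, 28 were called higher in LiPS-50 in each of the 3 comparisons. Of all probe sets 5.86% were called higher in all 3. The summed intensity of the 29 markers was 41594 to 46397 in the LiPS-50 arrays, against 25698 to 35236 in the other 9. The 12 pluripotent cell markers summed to 22790 to 23318 in LiPS-50 and to 23120 to 24186 in the others. In 6 of them all 3 LiPS-50 arrays lay below the other 9, and in 3 above. Of all probe sets 9.54% lay below and 8.81% above in this way. Endoderm markers summed to 2153 to 2517 against 1943 to 2245, and trophectoderm markers to 2983 to 3184 against 2637 to 4871. The endoderm median was 5.67 to 5.84 in LiPS-50 against 5.97 to 6.16. Its median deviation from the gene means overlapped, at -0.026 to 0.12 against -0.065 to 0.068. The part of these cells in the histone difference was not tested, and in bulk RNA fewer cells of a type and less RNA per cell cannot be told apart.

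Among the 5 linker histone genes, H1f5 and H1f1 fell and the others passed no test. H1f5, whose product is a main linker histone of dividing cells, was measured at 11.43, 11.45 and 11.53 in LiPS-45, at 11.51, 11.63 and 11.58 in LiPS-57, and at 11.51, 11.51 and 11.61 in LiPS-47. Its LiPS-50 values were 11.13, 11.19 and 11.15. All LiPS-50 arrays thus lay below every other array, while the other lines overlapped. The difference was -0.31 against LiPS-45, -0.41 against LiPS-57 and -0.39 against LiPS-47 (SE 0.0596 each), with limma adjusted p-values of 0.00387, 6.71e-04 and 8.37e-04.

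H1f1, another linker histone gene of the cluster on chromosome 13, read 10.46, 10.47 and 10.53 in LiPS-50 and between 10.60 and 10.98 elsewhere. It fell by 0.35 against LiPS-57 (limma adjusted p = 0.00582) and by 0.28 against LiPS-47 (limma adjusted p = 0.0189). The -0.21 against LiPS-45 did not pass (limma adjusted p = 0.0623). The call against LiPS-47 was lost without LiPS-47 culture 2 or 3 or LiPS-50 culture 1 or 2, with limma adjusted p-values from 0.0501 to 0.0626. H1f2 differed by 0.065 to 0.18, H1f3 by -0.064 to -0.20, and H1f6, the testis form H1t, by -0.033 to -0.18, with limma adjusted p-values from 0.225 to 0.858. H1f2 lay between 7.46 and 7.94 over all arrays, and its groups overlapped.

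The H2A genes held both the largest fall and the largest rise seen against LiPS-45. H2ac4 read 8.73, 8.68 and 8.91 in LiPS-45, 8.62, 9.03 and 8.70 in LiPS-57, and 8.64, 8.67 and 8.82 in LiPS-47. In LiPS-50 it read 7.73, 8.16 and 8.11, so that each LiPS-50 array lay below all others by a clear gap, with culture 1 the lowest. The difference was -0.77, -0.78 and -0.71 against LiPS-45, LiPS-57 and LiPS-47 (SE 0.128), which is 1.71-fold, 1.72-fold and 1.64-fold lower. The limma adjusted p-values were 0.00156, 0.00156 and 0.00232.

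H2ac1 went the other way. This gene codes for TH2A, an H2A form known for high levels in germ cells. It read 7.96, 7.88 and 7.71 in LiPS-45, 7.96, 8.04 and 8.10 in LiPS-57, and 7.996, 8.04 and 8.03 in LiPS-47. The LiPS-50 arrays gave 8.45, 8.73 and 8.59, above all 9 others. It was 1.67-fold, 1.47-fold and 1.48-fold higher in LiPS-50, with differences of 0.74, 0.56 and 0.57 (SE 0.0822). The limma adjusted p-values were 8.73e-05, 7.58e-04 and 5.61e-04.

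H2aw, a gene of the small group on chromosome 11, read 8.84, 8.97 and 8.95 in LiPS-50 and between 9.11 and 9.36 in the other arrays. It fell by 0.24, 0.39 and 0.41 against LiPS-45, LiPS-57 and LiPS-47 (limma adjusted p = 0.0142, 8.92e-04 and 5.41e-04). The first of these calls was lost without LiPS-45 culture 1 or 3 or LiPS-50 culture 1, or with the compared lines fitted alone, at limma adjusted p-values from 0.0516 to 0.0571. H2ac15 read 9.02, 8.90 and 8.89 in LiPS-50 and between 9.09 and 9.44 elsewhere. Its falls of 0.38 against LiPS-57 and 0.31 against LiPS-47 passed (limma adjusted p = 0.00233 and 0.00767), and its -0.20 against LiPS-45 did not (limma adjusted p = 0.0645).

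H2ac8 was dim, at 4.31 to 4.79 over all arrays. It fell against LiPS-47 alone, by 0.28 (limma adjusted p = 0.0288). That call was lost without LiPS-47 culture 1 or 3, without LiPS-50 culture 1 or 2, and with the lines fitted alone, at limma adjusted p-values from 0.0568 to 0.110. With the repeat number as a block its limma adjusted p was 0.0525.

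H2B was the type with the most members, and of its 11 genes 4 fell against LiPS-45 and 7 each against LiPS-57 and LiPS-47. Of all probe sets 8.3%, 7.48% and 7.31% were called lower in these comparisons. H2bc14 read 10.29, 10.25 and 10.35 in LiPS-45, 10.38, 10.50 and 10.42 in LiPS-57, and 10.38, 10.34 and 10.46 in LiPS-47. Its LiPS-50 values of 10.01, 9.83 and 10.05 lay below all of these. The difference was -0.33, -0.47 and -0.43 (SE 0.0694), with limma adjusted p-values of 0.00608, 7.55e-04 and 0.00114.

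H2bc3 read 7.72, 7.88 and 7.998 in LiPS-45, 7.84, 7.95 and 7.81 in LiPS-57, and 7.79, 7.73 and 7.86 in LiPS-47. The LiPS-50 arrays gave 7.38, 7.39 and 7.44, close together and below every other value. The difference was -0.46, -0.46 and -0.39 (SE 0.0748; limma adjusted p = 0.00135, 0.00139 and 0.00351). H2bc9 read 8.59, 8.62 and 8.57 in LiPS-50 and between 8.87 and 9.06 elsewhere, so its groups did not overlap either. It fell by 0.34, 0.42 and 0.37 (limma adjusted p = 0.00263, 6.84e-04 and 0.00135).

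H2bc22 read 5.22, 5.28 and 5.12 in LiPS-50 and between 5.38 and 5.60 elsewhere, and fell by 0.24, 0.25 and 0.26 (limma adjusted p = 0.0445, 0.0379 and 0.0267). Without LiPS-45 culture 1 or 3, the 6 falls left against LiPS-45 were H1f5, H2ac4, H2bc14, H2bc9, H2bc3 and H4c4. The H2bc22 call against LiPS-45 was thus lost in both runs, and its other calls were not followed through the alternatives. H2bc18, on chromosome 3, read 8.07, 8.09 and 8.08 in LiPS-50 and between 8.20 and 8.41 elsewhere. It fell by 0.24 against LiPS-57 and against LiPS-47 (limma adjusted p = 0.0277 in both), and its -0.19 against LiPS-45 did not pass (limma adjusted p = 0.0720). All LiPS-50 arrays lay below the other 9 in both genes.

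H2bu1-ps is listed as a transcribed pseudogene in the RefSeq gene table. It read 6.54, 6.60 and 6.43 in LiPS-50 and 6.63, 6.50 and 6.78 in LiPS-45, so these lines overlapped. In LiPS-57 it read 6.80, 6.91 and 6.92, and in LiPS-47 6.96, 6.97 and 6.96. It fell by 0.35 against LiPS-57 and by 0.44 against LiPS-47 (limma adjusted p = 0.00884 and 0.00198). Its difference of -0.11 against LiPS-45 did not pass (limma adjusted p = 0.403). H2bc8 fell by 0.40 against LiPS-57 alone (limma adjusted p = 0.0316), with values of 6.17 to 6.31 in LiPS-50 that overlapped those of LiPS-45, 6.12 to 6.56. H2bu2 fell by 0.33 against LiPS-47 alone (limma adjusted p = 0.0324), with values of 5.43 to 5.64 in LiPS-50 and 5.68 to 5.96 in LiPS-47.

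H2bc4 was the H2B gene that rose. It read 8.43, 8.23 and 8.61 in LiPS-50, 8.12, 8.09 and 8.01 in LiPS-45, 7.79, 7.98 and 7.82 in LiPS-57, and 7.63, 7.90 and 7.43 in LiPS-47. The LiPS-50 arrays lay above all others, and the LiPS-47 cultures were spread widely. H2bc4 was 0.77 higher than in LiPS-47 and 0.56 higher than in LiPS-57 (SE 0.119; limma adjusted p = 8.87e-04 and 0.00727). The 0.35 against LiPS-45 did not pass (limma adjusted p = 0.0693). Within LiPS-47 culture 3 held both the lowest H2bc4 value and the lowest summed fibroblast and feeder markers, 25698 against 30966 and 31681 in cultures 1 and 2, and the part of those cells was not tested.

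H2bc1 and H2bc21 were called in no comparison. H2bc1 codes for TH2B, the H2B form of germ cells, and is the head-to-head partner of H2ac1. It read 6.40, 6.32 and 6.31 in LiPS-50, within the range of 6.22 to 6.60 in the other arrays, and differed by 0.031, -0.17 and -0.12 (limma adjusted p = 0.882, 0.288 and 0.510). So H2ac1 passed the test in all 3 comparisons while the gene that shares most of its printed window did not, although a test of the difference between these genes was not run. H2bc21, on chromosome 3, was dim at 4.12 to 4.51 and differed by 0.13 to 0.17 (limma adjusted p = 0.271 to 0.406).

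**Figure D2:**
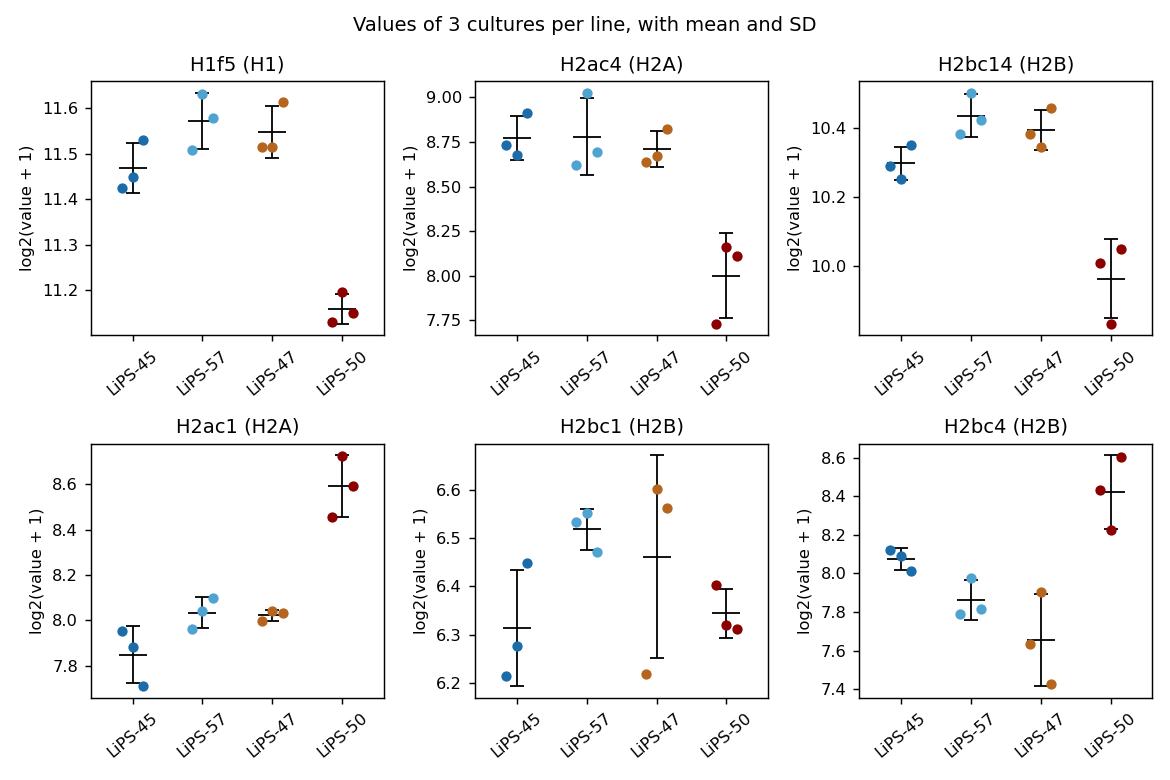
Points are the 3 cultures of each line for 6 genes, with the line mean and SD as bars, on the log2(value + 1) scale; axes do not start at 0. H1f5, H2ac4 and H2bc14 were lowest in LiPS-50, H2ac1 and H2bc4 highest there, and the LiPS-50 values of H2bc1 fell within those of the other lines.

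The 3 H3 genes with a probe set of their own were called in no comparison, and 2 of them were near the bottom of the scale. H3c7 lay between 2.99 and 3.62 over all arrays and H3c15 between 4.25 and 5.30. H3c15 varied strongly within LiPS-47, at 4.25, 5.06 and 4.66. H3c4 read 5.89, 6.02 and 5.98 in LiPS-50 and between 5.92 and 6.19 elsewhere. The differences of the 3 genes ran from -0.44 to 0.015, with limma adjusted p-values from 0.128 to 0.976. These probe sets say little about H3, whose bright probe sets list several genes.

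All 7 H4 genes had lower values in LiPS-50 in each comparison, and 3, 5 and 4 of them passed against LiPS-45, LiPS-57 and LiPS-47. H4c4 read 11.45, 11.33 and 11.38 in LiPS-45, 11.45, 11.43 and 11.39 in LiPS-57, and 11.20, 11.43 and 11.35 in LiPS-47. In LiPS-50 it read 11.13, 11.05 and 11.04, below all others, with culture 1 of LiPS-47 the nearest. The difference was -0.31, -0.35 and -0.25 (SE 0.0679; limma adjusted p = 0.00797, 0.00412 and 0.0251). The last call was lost without LiPS-47 culture 2 or 3 or LiPS-50 culture 2 or 3, and with the lines fitted alone, at limma adjusted p-values from 0.0709 to 0.0980.

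H4c6 read 9.48, 9.55 and 9.63 in LiPS-50 and between 9.68 and 10.11 elsewhere. It fell by 0.33, 0.37 and 0.33 (limma adjusted p = 0.0285, 0.0175 and 0.0290). Leaving out LiPS-45 culture 1, 2 or 3 or LiPS-50 culture 1 or 2 gave limma adjusted p-values from 0.0579 to 0.0959 against LiPS-45. Leaving out LiPS-57 culture 1 or 2 or LiPS-50 culture 1 gave 0.0568 to 0.0679 against LiPS-57. Against LiPS-47 the limma adjusted p was 0.0614 to 0.101 without LiPS-47 culture 2 or 3 or LiPS-50 culture 1 or 2, or with the lines fitted alone.

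H4c14, on chromosome 3, read 9.93, 9.98 and 9.86 in LiPS-50 and between 10.01 and 10.35 elsewhere. It fell by 0.39 against LiPS-57 and by 0.27 against LiPS-47 (limma adjusted p = 0.00497 and 0.0303). H4f16, the gene on chromosome 6, read 8.60, 8.66 and 8.63 in LiPS-50 and between 8.72 and 9.09 elsewhere. It fell by 0.39 against LiPS-57 and by 0.25 against LiPS-47 (limma adjusted p = 0.00500 and 0.0439). The LiPS-47 calls of both genes were lost without LiPS-47 culture 2 or 3 or LiPS-50 culture 1 or 3, and with the lines fitted alone. For H4f16 leaving out LiPS-50 culture 2, LiPS-45 culture 3 or any LiPS-57 culture, or adding the presumed control probe sets, ended it too, and the limma adjusted p reached 0.166.

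H4c8 read 6.00, 5.95 and 5.86 in LiPS-50 and between 6.03 and 6.45 elsewhere. It fell by 0.33 against LiPS-45 and by 0.43 against LiPS-57 (limma adjusted p = 0.0209 and 0.00491), and the -0.25 against LiPS-47 did not pass (limma adjusted p = 0.0748). The call against LiPS-45 was lost without LiPS-45 culture 1 or 3 or LiPS-50 culture 2 or 3, at limma adjusted p-values from 0.0502 to 0.0774. H4c3 differed by -0.18 to -0.26 (limma adjusted p = 0.0923 to 0.256) and H4c9 by -0.059 to -0.19 (limma adjusted p = 0.116 to 0.703). In H4 genes culture 1 of LiPS-47 stood below its line: its median deviation from the gene means was -0.13, against 0.061 and 0.15 in cultures 2 and 3 and -0.20 to -0.22 in LiPS-50.

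**Figure D3:**
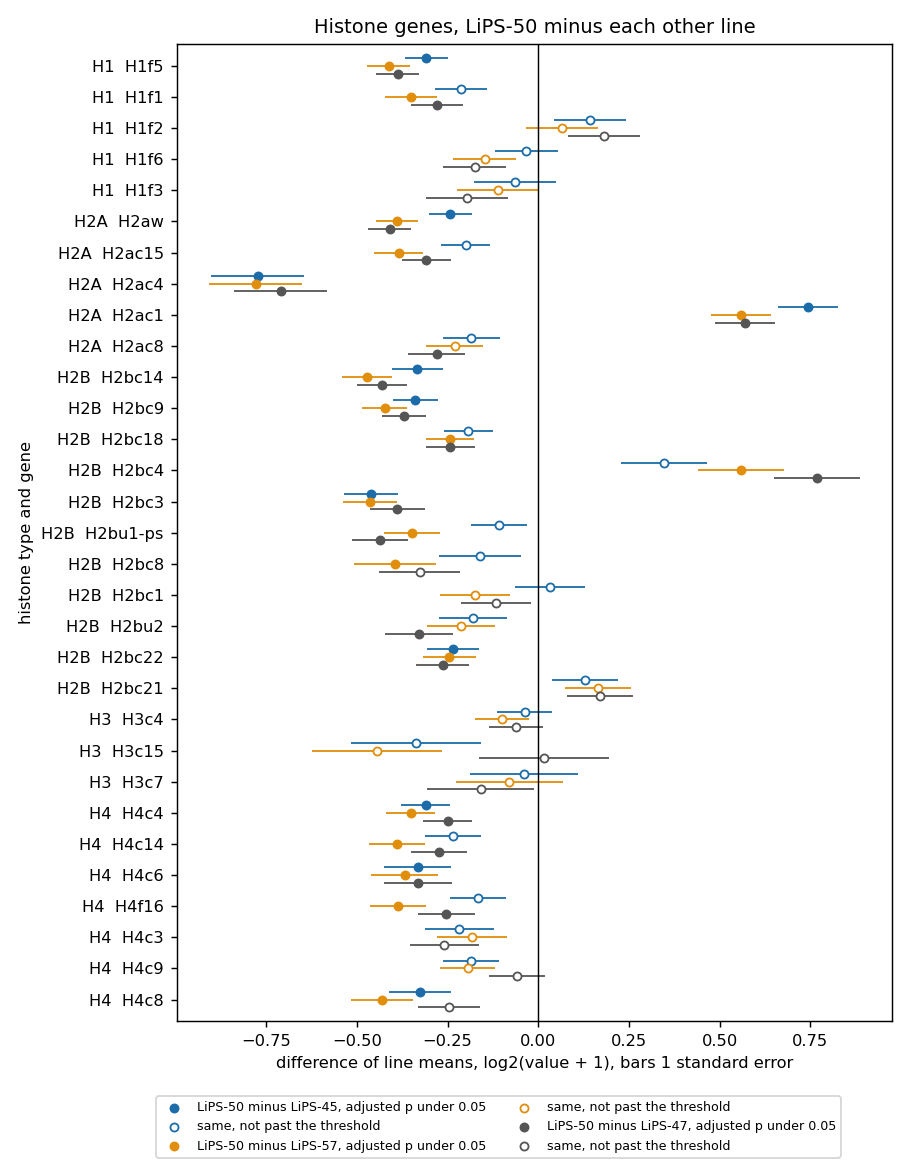
Points are the differences of line means, LiPS-50 minus each other line, on the log2(value + 1) scale, with bars of 1 SE; filled points have a limma adjusted p under 0.05. Most points lie left of 0, H2ac4 lies farthest left at -0.71 to -0.78, and H2ac1 and H2bc4 lie farthest right.

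By type, at least 1 comparison called a fall in 2 of 5 H1, 4 of 5 H2A, 8 of 11 H2B, 0 of 3 H3 and 5 of 7 H4 genes, or 19 of 31 in all (11.6% of all probe sets). By place, 9, 12 and 11 of the 23 genes on chromosome 13 fell against LiPS-45, LiPS-57 and LiPS-47, and 1, 2 and 2 rose. Of the 3 genes on chromosome 11, 1, 2 and 3 fell. Of the 4 genes on chromosome 3, 0, 2 and 2 fell, with 2 at an unadjusted p under 0.05 against LiPS-45 in limma. Of the 5 genes with a mean below the 40th percentile of all tested probe sets (5.21), namely H1f3, H2ac8, H2bc21, H3c7 and H3c15, only H2ac8 was called.

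The neighbours of the 2 genes that rose, H2ac1 and H2bc4, were not called higher. Next to H2ac1 in the RefSeq gene order, the nearest genes with a probe set of their own are H2bc1 and Slc17a4 on one side and Scgn and Carmil1 on the other. Of these only Carmil1 was called, as lower against LiPS-45 by 0.23 (limma adjusted p = 0.0392). Around H2bc4 lie H4c4, H3c4, H1f6 and H4c3, of which only H4c4 was called, as lower.

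The octamer stood in 4 of the 9 windows of the genes that fell in all 3 comparisons (44.4%), and in 1 of the 8 windows of the genes called in none (12.5%). These shares go with histone type, since the octamer stood in H2A and H2B windows only. Among the 8 only H2bc1 is of these types, and it holds the octamer. Of the H2A and H2B genes among the 9, H2aw, H2ac4, H2bc14 and H2bc3 hold it, and H2bc9 and H2bc22 do not. TATAAA stood in 6 of these 9 and 4 of these 8, and CCAAT in 8 and in 7. The gene that rose in all 3, H2ac1, holds all 3 strings, as do H2ac4 and H2bc3, which fell. These counts describe few windows and were not tested.

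Probe sets that list several genes, histone genes among them, are mostly bright and were lower in LiPS-50 as well. In all 25 of them the 3 LiPS-50 arrays lay below the other 9 (9.54% of all probe sets). Against LiPS-45 12 fell, against LiPS-57 25 and against LiPS-47 18, where 8.3%, 7.48% and 7.31% of all probe sets fell. In these comparisons 0 of the 25 rose at an adjusted or an unadjusted limma p under 0.05. The median difference was -0.17, -0.24 and -0.20. Probe sets of a type list largely the same genes and gave nearly the same values, so they are not independent counts.

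The 6 H2B probe sets, which list 14 or 15 genes each, were called in all 3 comparisons, with differences from -0.29 to -0.38. Their summed intensity was 13895 to 14817 in LiPS-50, 17705 to 17977 in LiPS-45, 18142 to 19355 in LiPS-57 and 17700 to 19734 in LiPS-47. The LiPS-50 sums lay below all others. The 10 H3 probe sets, with 12 genes each, differed by -0.11 to -0.25, and 0, 10 and 8 of them were called (8 of 10 had an unadjusted limma p under 0.05 against LiPS-45). Their line means ran from 12.20 to 12.98, where the highest value on an array lay at 13.84 to 14.01. The part of the upper end of the scale in the size of these differences was not tested.

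Of the 5 H4 probe sets, 5, 5 and 1 were called. The 4 that list 11 genes differed by -0.19 to -0.24. The H4 probe set that lists 2 genes fell more, by 0.49, 0.61 and 0.53 (SE 0.106; limma adjusted p = 0.00726, 0.00221 and 0.00422). It read 6.39, 6.39 and 6.18 in LiPS-50 and between 6.65 and 7.02 elsewhere. Of the 3 probe sets counted as H2A, 1 lists a histone gene and another gene, and the others list 20 and 19 genes with an H3 symbol among them. Of these 3, 0, 3 and 2 were called, with differences from -0.090 to -0.30. The probe set that lists an H1 and an H2B gene fell by 0.24, 0.29 and 0.25 and was called in all 3 comparisons.

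**Figure D4:**
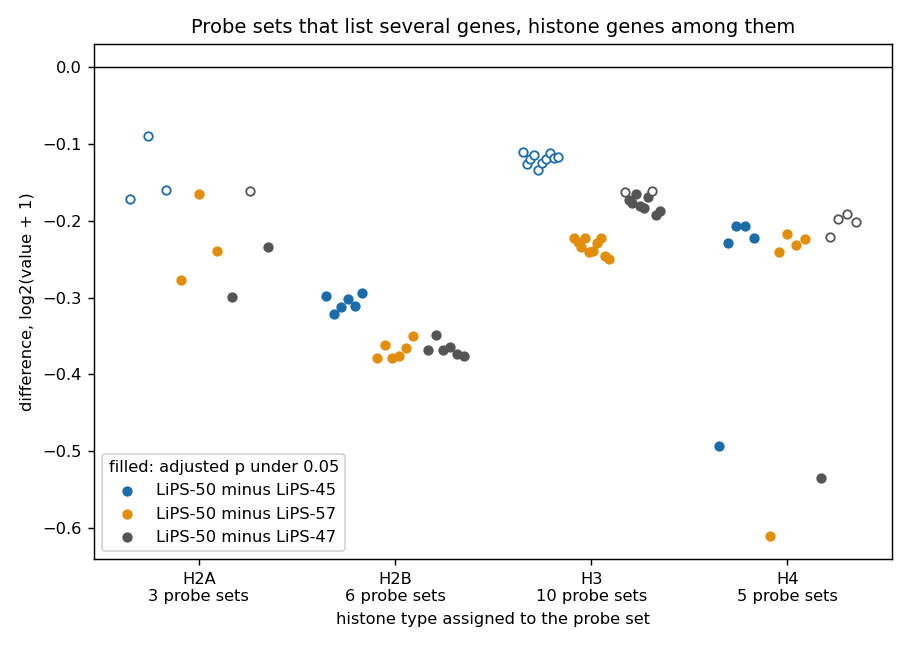
Points are probe sets that list several genes with histone genes among them, placed by the histone type assigned to them, with the difference LiPS-50 minus each other line on the log2(value + 1) scale; filled points have a limma adjusted p under 0.05. All points lie below 0, those of H2B between -0.29 and -0.38, those of H3 between -0.11 and -0.25, and the H4 probe set of 2 genes lies lowest.

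Among the other 3 lines no histone gene passed the test. limma called 0 of the 31 genes in any of the 3 pairs. Between LiPS-45 and LiPS-57 0.266% of all probe sets were called, with 0.0518% lower and 0.214% higher in LiPS-45. Between LiPS-45 and LiPS-47 it was 0.0622%, with 0.0207% lower and 0.0415% higher in LiPS-45, and between LiPS-57 and LiPS-47 0.159%, with 0.145% lower and 0.0138% higher in LiPS-57. At an unadjusted p under 0.05 there were 5, 3 and 1 of them, where 8.01%, 8.93% and 6.89% of all probe sets reached that. H3c15, a dim gene, was 0.46 higher in LiPS-57 than in LiPS-47 (SE 0.179, limma adjusted p = 0.643). H2bc4 was 0.42 higher in LiPS-45 than in LiPS-47 (SE 0.119, limma adjusted p = 0.299). H2bu1-ps was 0.33 lower in LiPS-45 than in LiPS-47 (SE 0.0770, limma adjusted p = 0.200). The median differences over the 31 genes were -0.077, -0.049 and 0.042, and a p that missed the threshold does not show equality. With the LiPS-50 arrays left out of the fit, an alternative chosen after seeing the data, the counts were again 0, 0 and 0.

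No histone gene passed the test for competence. With the line as a random block limma called 0 of 31 genes, and 0.0% of all probe sets. At an unadjusted p under 0.05 there were 8 of the 31, and 7.69% of all probe sets. The 8 are H2ac4, H2bc9, H2bc3, H3c15, H4c4, H4c9 and H4c8, which were higher in the competent lines, and H2ac1, which was lower. H2ac4 was 0.42 higher (SE 0.172, limma adjusted p = 0.648) and H2ac1 0.37 lower (SE 0.133, limma adjusted p = 0.648). The median over the 31 genes was 0.11. The H2ac4 means of the competent lines were 8.77 (LiPS-45) and 8.78 (LiPS-57), and LiPS-47, which lacked competence, was at 8.71 where LiPS-50 was at 8.001. For H2ac1 the competent lines gave 7.85 and 8.03, LiPS-47 gave 8.02 and LiPS-50 gave 8.59. With the spread between cultures as the only error 8 genes were called, 7 higher and 1 lower in the competent lines. That setting treats cultures as if they were lines. The share of all probe sets called in it is not given here, so these calls are not read as a histone result.

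Genes that act on the supply of histones were read from 4 lists, and the smallest p-values are described for LiPS-50 against LiPS-57. Of all probe sets 7.48%, 8.3% and 7.31% were called lower against LiPS-57, LiPS-45 and LiPS-47, and 8.16%, 8.18% and 8.48% higher. These shares stand beside the counts of each list. In the list of S phase and DNA replication, 10 of 27 genes fell and 1 rose against LiPS-57, as did 10 and 1 against LiPS-45 and 8 and 1 against LiPS-47. The list's median difference was -0.17, -0.12 and -0.15 in that order. The total of called genes against LiPS-45 fell from 11 to 6 without LiPS-45 culture 1 or 3 and to 7 without LiPS-45 culture 2 or any single LiPS-50 culture, and that against LiPS-47 fell from 9 to 5 without LiPS-47 culture 3 or LiPS-50 culture 1. Pcna, the sliding clamp of DNA polymerases, read 11.05, 11.13 and 11.08 in LiPS-50 and between 11.34 and 11.44 elsewhere. It fell by 0.33, 0.27 and 0.27 against LiPS-57, LiPS-45 and LiPS-47 (SE 0.0509; limma adjusted p = 0.00102, 0.00336 and 0.00291). Ccna2, the cyclin of S phase, fell by 0.29, 0.26 and 0.32 (limma adjusted p = 0.00411, 0.00687 and 0.00198). In both genes all LiPS-50 arrays lay below the others.

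In the list of histone mRNA transcription and processing, 8 of 24 genes fell and 1 rose against LiPS-57, 8 and 1 against LiPS-45, and 5 and 2 against LiPS-47. The total called fell to 5 without LiPS-45 culture 3 against LiPS-45, to 4 without LiPS-57 culture 1 or 2 and 5 without LiPS-50 culture 2 against LiPS-57, and to 4 without LiPS-47 culture 3 or LiPS-50 culture 1 against LiPS-47. Slbp, which is also on the S phase list, read 9.17, 9.30 and 9.35 in LiPS-50. It read 9.64, 9.62 and 9.79 in LiPS-45, 9.62, 9.79 and 9.61 in LiPS-57, and 9.69, 9.48 and 9.68 in LiPS-47, so LiPS-50 lay below all other arrays. It fell by 0.40, 0.41 and 0.35 against LiPS-57, LiPS-45 and LiPS-47 (SE 0.0835; limma adjusted p = 0.00649, 0.00531 and 0.0137). Cpsf2, a subunit of the complex that cuts the message, fell by 0.35, 0.34 and 0.38 (limma adjusted p = 0.00353, 0.00369 and 0.00162), and Ncbp1, which binds the cap, by 0.27, 0.23 and 0.24 (limma adjusted p = 0.00584, 0.0120 and 0.0106). Npat, named here after its values were seen, fell against LiPS-45 alone, by 0.41 (limma adjusted p = 0.00765). Its differences against LiPS-57 and LiPS-47 were -0.17 and -0.23 (limma adjusted p = 0.253 and 0.106), and its LiPS-50 arrays at 7.64, 7.36 and 7.69 overlapped the others.

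Histone chaperones, which carry new histones to DNA, gave 7 falls and 2 rises of 19 genes against LiPS-57, 6 and 2 against LiPS-45, and 7 and 2 against LiPS-47. The total called fell to 5 without LiPS-57 culture 1 or 3 against LiPS-57, and to 5 without LiPS-47 culture 1 or LiPS-50 culture 2 against LiPS-47. Nasp, which holds newly made histones, read 9.69, 9.83 and 9.74 in LiPS-50 and between 10.07 and 10.22 elsewhere. It fell by 0.34, 0.41 and 0.35 against LiPS-57, LiPS-45 and LiPS-47 (SE 0.0586; limma adjusted p = 0.00200, 5.70e-04 and 0.00158). Nap1l1, a chaperone of H2A and H2B, fell by 0.35, 0.44 and 0.27 (limma adjusted p = 0.00401, 9.39e-04 and 0.0157). In both genes LiPS-50 lay below all other arrays.

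Of 10 genes for replication-independent variants, 1, 2 and 1 fell against LiPS-57, LiPS-45 and LiPS-47, and 0 rose at an adjusted or an unadjusted limma p under 0.05. With 7.48%, 8.3% and 7.31% of all probe sets called lower, 1 of 10 genes is near the share of the whole array. H2az1, the gene of H2A.Z, read 11.63, 11.62 and 11.69 in LiPS-50 and between 11.93 and 12.03 elsewhere, with no overlap. It fell by 0.33, 0.34 and 0.30 (SE 0.0522; limma adjusted p = 0.00128, 9.87e-04 and 0.00171). The other call was H2ax, the variant marked at DNA breaks, at -0.21 against LiPS-45 (limma adjusted p = 0.0234). The count of 2 against LiPS-45 fell to 1 without LiPS-45 culture 3 or any single LiPS-50 culture.

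The list genes that rose in all 3 comparisons were Pola1, Rbbp7, Atrx and Cstf2, and all 4 lie on chromosome X. They are the 4 X-linked genes of the lists. Pola1, the catalytic subunit of the polymerase that starts new strands, rose by 0.76, 0.61 and 0.76 against LiPS-57, LiPS-45 and LiPS-47 (SE 0.0863; limma adjusted p = 1.34e-04, 5.10e-04 and 1.05e-04). Of the 75 other list genes, 25, 25 and 20 fell and 0, 0 and 1 rose. The 1 was Tut7, at 0.23 against LiPS-47 (limma adjusted p = 0.0485). Over the whole array, of 739 X-linked genes, 281, 264 and 273 were called higher and 12, 21 and 17 lower, with a median of 0.15, 0.16 and 0.14. Of all probe sets 8.16%, 8.18% and 8.48% were called higher against LiPS-57, LiPS-45 and LiPS-47, and 7.48%, 8.3% and 7.31% lower. No histone gene described here lies on chromosome X. The part of the X chromosome in the rise of these 4 genes was not tested, nor was that of the fibroblast and feeder cells in the falls of these lists.

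**Figure D5:**
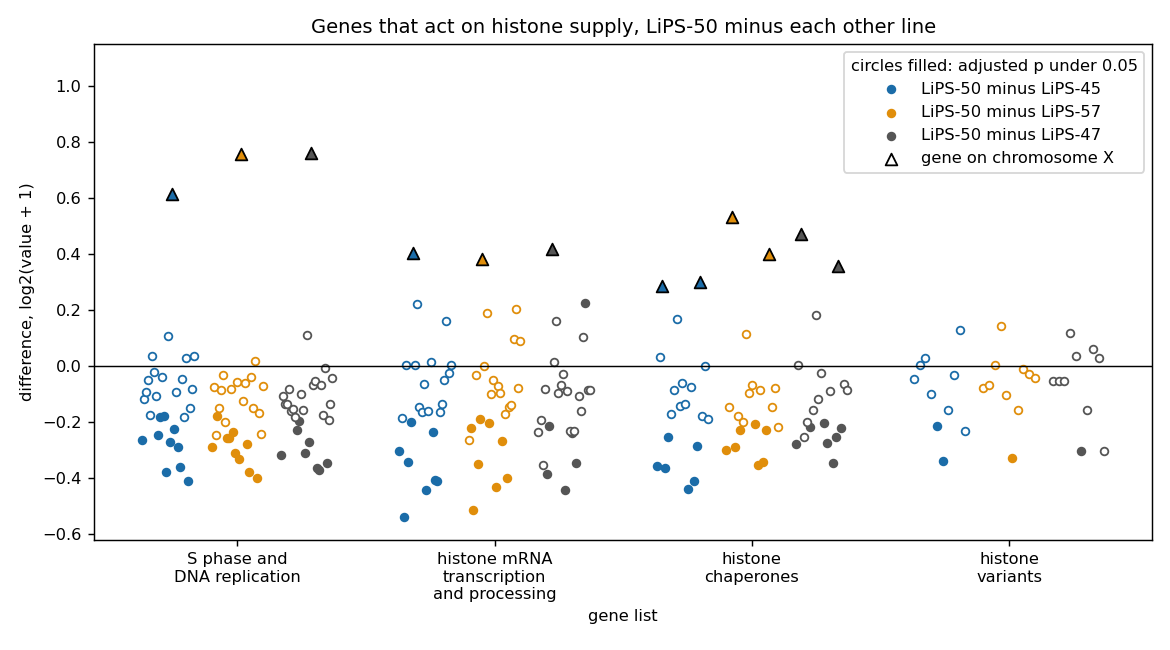
Points are genes of 4 lists, with the difference LiPS-50 minus each other line on the log2(value + 1) scale; filled circles have a limma adjusted p under 0.05 and triangles mark the 4 genes on chromosome X. The triangles lie at the top of their lists, between 0.29 and 0.76, while most called circles lie below 0.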

How the data were processed

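RNA of 12 cultures was amplified and hybridised to Affymetrix arrays, per the labels' protocols. The authors deposited a linear intensity per probe set and array. Their processing notes, per the labels, name GCOS 1.4, and how probes were summarised and normalized is not given in the sources used here. No depth exists for arrays, so their number limits the precision.

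Values became log2(value + 1), which understates changes of dim genes. Of 35556 probe sets, 6617 numbered below the annotation were presumed controls and left out. Tests used limma 3.58.1 in R 4.3.3 (lmFit, eBayes, two-sided, Benjamini-Hochberg over 28939 probe sets), with 4 line means over all arrays. Competence had the line as a random block (duplicateCorrelation, 0.183). The fits were also run on simulated data, and the outcome is not used here as support. Changes as small as the smallest histone falls were not simulated. The simulated competence data held no differences between lines of a class. No 2 arrays shared more than 0.746% of values.

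The genes and lists were chosen with earlier results of these data known. Named with full values by rule are, per histone type, up to 5 called genes of smallest p, the 2 brightest genes and the largest differences of each pair, and up to 4 genes per list; other histone genes are named so that each is accounted for, and were not followed through the alternatives. List genes without a probe set of their own were not analysed here. Symbols, gene order and promoters come from RefSeq (GRCm38.p6); the array annotation names no build. Alternatives were centring, quantile normalization, a dim filter (40th percentile), a pseudocount of 16, controls included, the repeat number as a block, lines fitted alone, the mean of probe sets, array weights, and single arrays left out.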

Additional observations from a re-analysis of the deposited data

How the results depend on the processing

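Of 42 gene results followed, 32 kept their call and direction under every alternative run, and 0 reversed. Of 881 single comparisons with an alternative, 829 kept the call. The 10 results that lost a call are given with their values above. Calls of H2bc22, H2bc18, H2bc8 and H2bu2 fell outside the naming rule on smallest p and were not followed. These counts therefore do not cover every called histone gene. Leaving out 1 array at a time gave 7 to 12 histone genes against LiPS-45, 15 to 20 against LiPS-57, 11 to 20 against LiPS-47, and 0 for the 3 other pairs and for competence. Lines fitted alone gave 11 against LiPS-47. The competence contrast with the culture spread as the only error gave 8, with no share of all probe sets to set beside it. For the S phase list, quantile normalization and the lines fitted alone gave 7 each against LiPS-45, and single arrays left out gave 6 to 10, 8 to 11 and 5 to 9 against LiPS-45, LiPS-57 and LiPS-47. For the chaperones the lines fitted alone gave 5 against LiPS-47, and the ranges were 6 to 8, 5 to 9 and 5 to 10. For mRNA transcription and processing, the dim filter gave 11 and the lines fitted alone 4 against LiPS-47, and the ranges were 5 to 10, 4 to 10 and 4 to 6. For the variants the lines fitted alone gave 1 against LiPS-45, and the ranges were 1 to 3, 1 to 1 and 1 to 1. The dim filter tests fewer probe sets, and the fits of lines alone and those without 1 array use fewer arrays. Other causes were not tested. The shares of all probe sets called under these alternatives are not given here, so changes in these counts are not read as particular to the genes counted.

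The correlation of deviations between cultures of the same repeat number ran from -0.17 to 0.12, and 4 of 18 were above 0.1. Between cultures of other numbers it ran from -0.18 to 0.20, and 6 of 36 were above 0.1. The deviations of the 3 cultures of a line sum to 0, which ties these correlations to each other. They cannot decide whether equal numbers mark shared handling. With the number as a block the histone counts were 11, 19 and 18 against LiPS-45, LiPS-57 and LiPS-47, and 0 elsewhere; of the gene results followed, the H2ac8 call against LiPS-47 alone was lost. Differences as large as the spread of 3 cultures, and larger ones, can be missed with these arrays, above all in the 5 dim genes. For H4c3 a difference of -0.26 against LiPS-47 (SE 0.0955) did not pass (limma adjusted p = 0.0923).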
